A study of Mus musculus with 12 samples.

Results

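The unfolded protein response and the integrated stress response were followed through 10 genes, Xbp1, Atf4, Ddit3, Hspa5, Herpud1, Trib3, Chac1, Ppp1r15a, Ddit4 and Asns, in neutrophils of mammary tumors and of bone marrow (BM). They were taken from the 55335 genes of the count files by the Ensembl IDs that carry these symbols. Ddit3 is annotated on 2 IDs, so that 11 lines matched, and the shorter Ddit3 entry held 0 counts in all 12 libraries and was set aside. Each of the 10 remaining genes passed the filter on low counts in every comparison.

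The study used RNA-seq of sorted neutrophils from FVB mice of 10 weeks in SOPF housing, with 4 libraries in each of 3 groups. PyMT mice carry the polyoma middle T oncogene, which is expressed in the mammary epithelium and leads to mammary tumors, and the tumor associated neutrophils (TANs) of these mice had an intact Cxcr2. PyMT-Cxcr2-/- mice carry the same transgene and lack the chemokine receptor Cxcr2 in all of their cells, the tumor included. The third group was BM neutrophils of WT mice, which carry neither allele and received, like the other groups, no treatment. TANs thus differed from WT BM neutrophils in tissue, in the PyMT transgene and in preparation. Tumors were minced and digested with enzymes, while BM was spun out of the bones. PyMT-Cxcr2-/- TANs differed from WT BM neutrophils in the Cxcr2 genotype as well. In the comparisons with BM these differences cannot be told apart.

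The unfolded protein response senses misfolded proteins in the endoplasmic reticulum (ER) through the sensors Ire1, Perk and Atf6, and raises chaperones, folding enzymes and the degradation machinery. The integrated stress response passes through phosphorylation of the translation factor eIF2, by Perk or by kinases that sense amino acid shortage, heme shortage or double-stranded RNA, and favors the translation of Atf4 and its target genes. In myeloid cells of tumors, the Perk branch and Ddit3 are known for their part in the suppressive function of these cells. Counts per gene measure RNA only, so they show neither the spliced share of Xbp1 nor the amount of Atf4 protein.

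Promoter stretches show which of these genes hold letters that the transcription factors of the response are known to bind. The windows ran from 250 bases before to 50 bases after the RefSeq start of each gene (GRCm38.p6, all 10 genes matched), and both strands were searched. The ER stress element (ERSE, CCAAT and CCACG with 9 bases between them), bound by Atf6 and Xbp1 together with NF-Y, was found in Hspa5 alone among the 10 genes and in 0.119% of 32851 windows. The related ERSE-II (ATTGG and CCACG with 1 base between them), which shares the letters CCACG, was found in Herpud1 alone and in 0.0365% of windows. The element of Atf4 with its partners (CARE, TGATGNAA) was found in Herpud1, Trib3, Chac1 and Asns, 4 of 10 windows, and in 3.97% of all windows. The core of the Xbp1 element (TGACGTGG) was in 0 of the 10 windows and in 0.676% of all. Each stretch is given along the strand of its gene with the motif in capitals, and in Herpud1, Trib3 and Chac1 the CARE lies on the opposite strand. A match describes letters in this window and not binding.
Hspa5, ERSE, chr2:34772020-34772049, plus strand, motif 65 bases before the start: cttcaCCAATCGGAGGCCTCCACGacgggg
Herpud1, ERSE-II, chr8:94386368-94386397, plus strand, motif 52 bases before the start: cgggcgctgATTGGGCCACGttggacactg
Herpud1, CARE, chr8:94386306-94386335, plus strand, motif 112 bases before the start: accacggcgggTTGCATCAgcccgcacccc
Chac1, CARE, chr2:119351038-119351067, plus strand, motif 193 bases before the start: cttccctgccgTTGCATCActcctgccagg
Asns, CARE, chr6:7693214-7693243, minus strand, motif 23 bases before the start: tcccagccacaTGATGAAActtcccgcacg
Trib3, CARE, chr2:152344028-152344057, minus strand, motif at base 15 of the transcript: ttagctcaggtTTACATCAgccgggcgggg

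Library totals ran from 25032704 to 51351569 reads counted in genes, and 32.0% to 52.5% of the reads counted by the authors fell in no gene. Cxcr2 stood at 1030 to 1536 CPM (counts scaled to the library total) with the gene intact in PyMT TANs, and at 1818 to 2250 CPM in WT BM neutrophils, but at 8.97 to 10.1 CPM in the knock-out TANs, as the labels give it. Cells were sorted as CD45+ CD11b+ Ly6G+ F4/80-, yet the summed level of 8 macrophage markers reached 3070 to 6705 CPM in TANs of PyMT mice, 3153 to 6228 CPM in those of PyMT-Cxcr2-/- mice and 220 to 321 CPM in WT BM neutrophils, and all 8 were higher in both TAN groups. The sum of 8 mammary epithelial markers was 41.0 to 427 CPM, 69.1 to 297 CPM and 0 to 0.229 CPM in the same order, with 5 of the 8 at 0 in every BM library. The sum of 8 neutrophil markers was 9967 to 15799.6 CPM, 16794 to 27512 CPM and 72349 to 94917 CPM. The sum of 10 genes of immature granulocytes was 534 to 768 CPM, 2032 to 6493 CPM and 28732 to 45591 CPM, and all 10 were lower than in BM in both TAN groups. Genes often raised by tissue dissociation, 11 in the list, summed to 9270 to 13141 CPM, 12927 to 15830 CPM and 4973 to 6130 CPM. The part of these cells and of the preparation in the differences between TANs and BM neutrophils was not tested, and in such sorted pools fewer cells of a type and less RNA per cell cannot be told apart.

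Against WT BM neutrophils, 4 of the 10 genes were higher in PyMT TANs, namely Xbp1, Hspa5, Ppp1r15a and Ddit4, and 0 were lower. A gene was called higher or lower where edgeR's quasi-likelihood test gave a p under 0.05 after Benjamini-Hochberg adjustment and the change was at least 1.5-fold. Of all 17153 genes tested, 53.3% were called by this rule, 30.1% as higher and 23.2% as lower, so that a large share of all genes differed between these groups. The groups did not overlap for 5 of the 10 genes, beside 58.2% of all genes. The same 4 genes were called higher in PyMT-Cxcr2-/- TANs, where 59.5% of 17732 genes tested were called, 34.4% as higher and 25.1% as lower, and where the groups did not overlap for 6 of the 10 genes, beside 65.8% of all genes. Both comparisons use the same 4 BM libraries and are therefore not independent of each other. Between PyMT-Cxcr2-/- TANs and PyMT TANs, 0 of the 10 genes were called, beside 1.98% of 18463 genes tested (1.38% higher and 0.596% lower). In that comparison 2 genes, Xbp1 and Hspa5, had an unadjusted p under 0.05, and DESeq2 likewise called 0 of the 10.

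**Figure D1:**
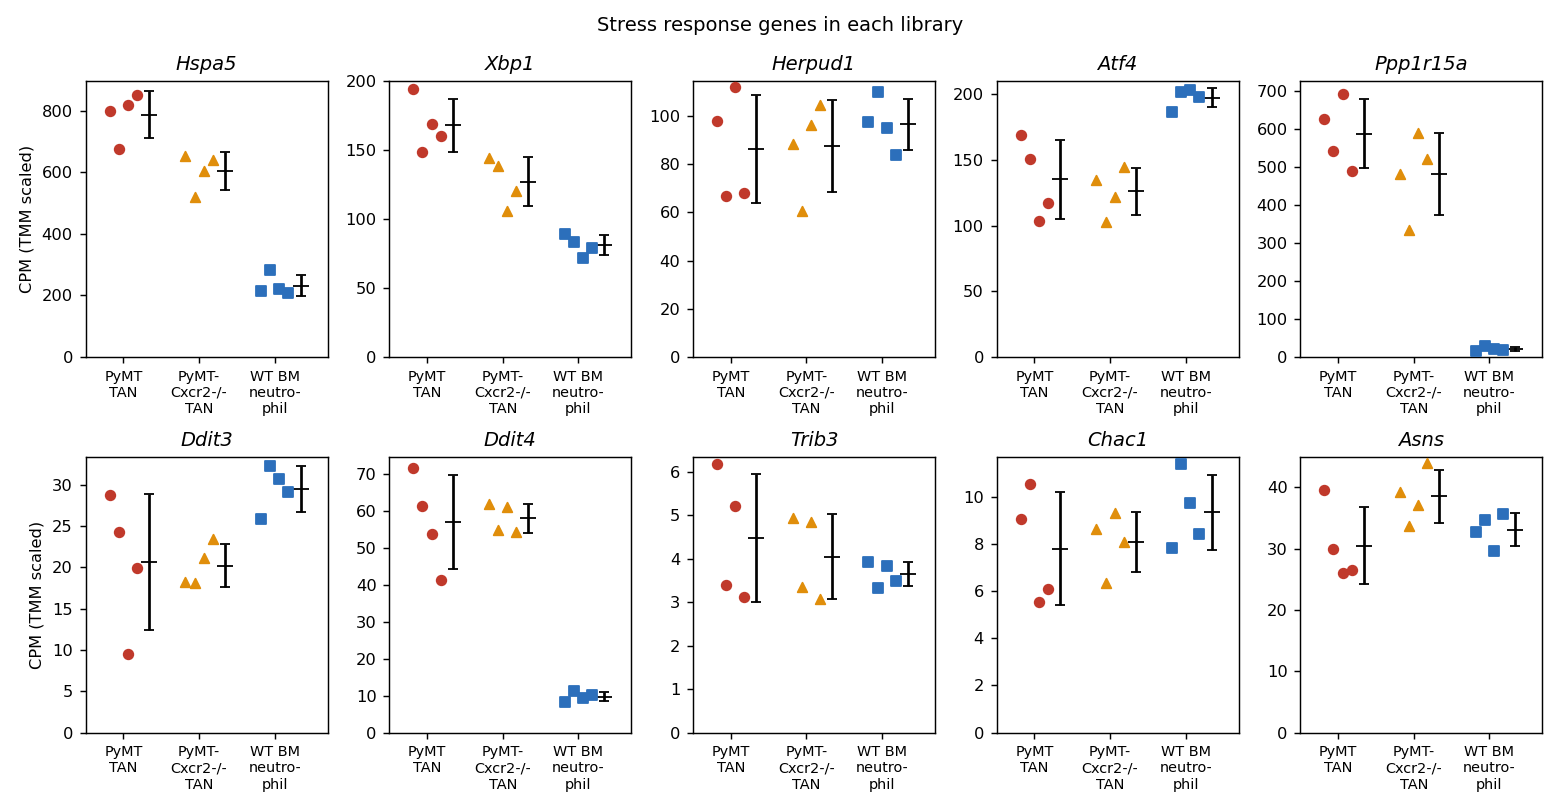
Level of each of the 10 genes in each library, in CPM with TMM scaling on linear axes that start at 0, with circles for PyMT TANs, triangles for PyMT-Cxcr2-/- TANs and squares for WT BM neutrophils. The black mark and bar beside each group give its mean and SD (n = 4). All TAN libraries lie above all BM libraries for Hspa5, Xbp1, Ppp1r15a and Ddit4, and all lie below them for Atf4.

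Hspa5, the main ER chaperone of the Hsp70 family (also known as BiP), which binds the sensors when the ER is not under stress, was measured at 797, 677, 819 and 852 CPM in PyMT TANs. In PyMT-Cxcr2-/- TANs it was at 652, 518, 604 and 640.1 CPM. In WT BM neutrophils it was at 215, 282, 221 and 206 CPM, so that the 3 groups did not overlap. Relative to BM, the fold was 3.60 (95% interval 2.91 to 4.46) in PyMT TANs, with edgeR adjusted p = 1.1e-06, and 2.84 (2.35 to 3.41) in PyMT-Cxcr2-/- TANs, with edgeR adjusted p = 2.2e-07. Between the TAN groups its log2 fold change was -0.42 ± 0.13 (SE) with an interval of -0.71 to -0.12 and an edgeR adjusted p of 0.147, and it was not called.

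Xbp1, the transcription factor made after Ire1 splices its RNA, was measured at 194, 149, 169 and 160.0 CPM in PyMT TANs. The values in PyMT-Cxcr2-/- TANs were 144, 138, 106 and 120.1 CPM. WT BM neutrophils had 89.0, 83.5, 72.0 and 79.0 CPM, and here too each group lay apart from the others, the TAN groups by little. Xbp1 was 2.19-fold (95% interval 1.83 to 2.63) higher in PyMT TANs than in BM, with edgeR adjusted p = 1.2e-05. It was 1.71-fold (1.44 to 2.03) higher in PyMT-Cxcr2-/- TANs, with edgeR adjusted p = 4.8e-05. Between the TAN groups the log2 fold change was -0.43 ± 0.14 with an interval of -0.74 to -0.13 and an edgeR adjusted p of 0.149, and Xbp1 was not called. Of all genes tested between the TAN groups, 11.9% had groups that did not overlap, beside 2 of the 10 genes here. When genes under 10 CPM were left out before scaling and testing, the edgeR adjusted p was 0.0380 for Xbp1 and 0.0367 for Hspa5, with changes still under 1.5-fold. Between the same groups 5 of 8 neutrophil markers were higher and 1, Cxcr2 itself, was lower in PyMT-Cxcr2-/- TANs, and 0 of 8 macrophage markers were called. Of 8 tested genes of immature granulocytes, 3 were higher there, Ltf, Camp and Ngp (log2 fold changes 2.46, 2.68 and 2.60), and 0 were lower. The part of these shifts in the values of Xbp1 and Hspa5 was not tested.

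Herpud1, an ER membrane protein of the ubiquitin-dependent degradation machinery, showed no such pattern. It ranged from 66.8 to 112 CPM in PyMT TANs, from 60.7 to 105 CPM in PyMT-Cxcr2-/- TANs and from 83.8 to 109.8 CPM in WT BM neutrophils. The groups overlapped in all 3 comparisons. The log2 fold change against BM was -0.08 (95% interval -0.47 to 0.31) in PyMT TANs and -0.02 (-0.33 to 0.29) in PyMT-Cxcr2-/- TANs, and between the TAN groups it was -0.01 (-0.48 to 0.45). Among the 10 genes Herpud1 is the one with both an ERSE-II and a CARE in its window.

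Atf4, the transcription factor at the center of the integrated stress response, had less RNA in TANs than in BM neutrophils. It was at 169, 150.5, 104 and 117 CPM in PyMT TANs and at 135, 103, 122 and 144 CPM in PyMT-Cxcr2-/- TANs. WT BM neutrophils were at 187, 202, 203 and 198 CPM, above each of the 8 TAN libraries. The log2 fold change was -0.47 ± 0.14 (edgeR adjusted p = 0.0149) in PyMT TANs and -0.53 ± 0.11 (edgeR adjusted p = 0.00056) in PyMT-Cxcr2-/- TANs. Both changes passed the threshold on p and fell short of 1.5-fold, with inverse folds of 1.39 and 1.44, so that Atf4 was not called. Without PyMT TAN library 1 it was called lower in PyMT TANs with a log2 fold change of -0.59, and without PyMT-Cxcr2-/- TAN library 4 it was called lower in that group, at -0.60. Between the TAN groups the difference was -0.13 with an interval of -0.51 to 0.24.

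Ppp1r15a, which brings protein phosphatase 1 to eIF2 and so ends the response (also known as GADD34), had the largest difference of the 10 genes. It was at 628, 544, 693 and 489 CPM in PyMT TANs and at 482, 335, 591 and 521 CPM in PyMT-Cxcr2-/- TANs. WT BM neutrophils held 14.4, 29.2, 20.6 and 18.8 CPM. The lowest TAN library thus stood at 335 CPM and the highest BM library at 29.2 CPM. The fold was 30.05 (95% interval 21.1 to 42.9) in PyMT TANs, with edgeR adjusted p = 5.8e-08, and 25.2 (17.7 to 35.9) in PyMT-Cxcr2-/- TANs, with edgeR adjusted p = 7.0e-09. The TAN groups overlapped and differed by -0.32 on the log2 scale with an interval of -0.73 to 0.08 and an edgeR adjusted p of 0.47. Ppp1r15a lies on chromosome 7 from 45522916 to 45526268 and overlaps Tulp2 on the opposite strand, which reached at most 10.5 CPM in TANs with Cxcr2, 8.31 CPM in those without and 1.96 CPM in BM.

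Ddit3 (also known as CHOP), the transcription factor downstream of Atf4 that favors cell death under lasting stress, was at 28.8, 24.3, 9.54 and 19.99 CPM in PyMT TANs. PyMT-Cxcr2-/- TANs had 18.3, 18.1, 21.1 and 23.5 CPM. WT BM neutrophils had 25.9, 32.3, 30.8 and 29.1 CPM, above each PyMT-Cxcr2-/- TAN library and within reach of the highest PyMT TAN library. Its log2 fold change against BM was -0.44 ± 0.27 (edgeR adjusted p = 0.18) in PyMT TANs and -0.43 ± 0.12 (edgeR adjusted p = 0.0066) in PyMT-Cxcr2-/- TANs, in both cases under 1.5-fold. Ddit3 varied most among PyMT TANs, with a coefficient of variation of 39.9% beside 12.8% and 9.34% in the other groups. It shares its place with its second annotated entry on the same strand and with Mars and Gm4189 on the opposite strand, where Mars was at 19.7 to 35.5 CPM. The level of Ddit3 is uncertain through the second entry whether or not counting used strand. Through Mars and Gm4189 it is uncertain if counting did not use strand.

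Ddit4 (also known as REDD1), an inhibitor of mTORC1, was at 71.4, 61.2, 53.6 and 41.3 CPM in PyMT TANs and at 61.7, 54.8, 60.9 and 54.2 CPM in PyMT-Cxcr2-/- TANs. In WT BM neutrophils it was at 8.30, 11.2, 9.37 and 10.2 CPM, far from any TAN library. The fold was 6.15 (95% interval 4.67 to 8.11) in PyMT TANs, with edgeR adjusted p = 5.9e-07, and 6.45 (5.40 to 7.70) in PyMT-Cxcr2-/- TANs, with edgeR adjusted p = 1.1e-09. The PyMT TAN libraries enclosed all 4 PyMT-Cxcr2-/- libraries, and the difference between these groups was -0.01 on the log2 scale with an interval of -0.37 to 0.35.

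Trib3, a pseudokinase that binds Akt, and Chac1, an enzyme that degrades glutathione, were the genes with the lowest levels, and both hold a CARE. Trib3 ranged from 3.12 to 6.18 CPM in PyMT TANs, from 3.06 to 4.92 CPM in TANs without Cxcr2 and from 3.33 to 3.92 CPM in BM. Its wider spread in TANs gave intervals of -0.28 to 1.03 and -0.21 to 0.75 on the log2 scale against BM. Chac1 ranged from 5.55 to 10.5 CPM, from 6.32 to 9.29 CPM and from 7.82 to 11.4 CPM in the same order of groups, with intervals of -0.73 to 0.37 and -0.47 to 0.29. Neither gene passed a test in any comparison, and their intervals between the TAN groups, -0.89 to 0.53 for Trib3 and -0.55 to 0.59 for Chac1, leave differences of 1.5-fold within reach.

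Asns, asparagine synthetase, is a classical target of Atf4 under amino acid shortage and holds a CARE close to its start. It was at 39.6, 29.9, 26.1 and 26.5 CPM in PyMT TANs, at 39.2, 33.7, 37.2 and 44.0 CPM in PyMT-Cxcr2-/- TANs and at 32.7, 34.6, 29.6 and 35.6 CPM in WT BM neutrophils. All 3 groups overlapped. The log2 fold change against BM was -0.04 (95% interval -0.37 to 0.29) in PyMT TANs. In PyMT-Cxcr2-/- TANs it was 0.34 ± 0.11 with edgeR adjusted p = 0.0115, a fold of 1.26 and thus under the limit of 1.5-fold. The direct difference between the TAN groups was 0.31 with an interval of -0.05 to 0.67 and an edgeR adjusted p of 0.43.

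**Figure D2:**
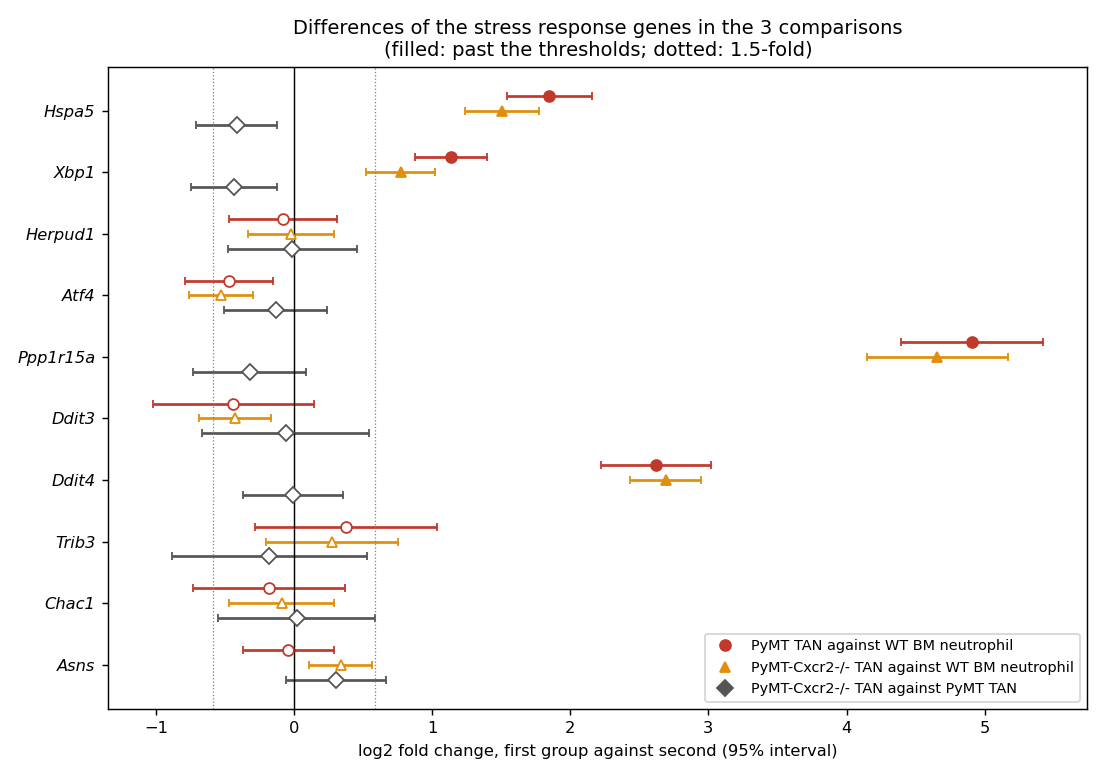
Log2 fold changes of the 10 genes with their 95% intervals in the 3 comparisons, the first named group against the second, with circles, triangles and diamonds for the comparisons. Filled marks passed both thresholds and dotted lines mark 1.5-fold. Filled marks appear for Hspa5, Xbp1, Ppp1r15a and Ddit4 in both comparisons with BM, and every diamond, PyMT-Cxcr2-/- against PyMT TANs, is open.

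Levels were compared between genes after division by the exon length of each gene (CPM per kilobase). In WT BM neutrophils Atf4 led with 83.8 ± 3.19 CPM per kilobase (SD, n = 4), followed by Hspa5 with 54.7 ± 8.19 and Herpud1 with 41.4 ± 4.56 CPM per kilobase. Ppp1r15a was seventh there with 7.07 ± 2.11 CPM per kilobase, and its libraries overlapped those of Chac1 (5.71 ± 0.969), which in turn overlapped those of Ddit4 (5.56 ± 0.695). The other neighbors in the BM order did not overlap. In PyMT TANs Ppp1r15a was first with 200.4 ± 30.8 CPM per kilobase and overlapped Hspa5 with 186 ± 18.1, well above Atf4 with 57.3 ± 12.7 CPM per kilobase. After these, Atf4 overlapped Xbp1, Xbp1 overlapped Herpud1, and Herpud1 overlapped Ddit4. Ddit3 and Asns overlapped as well, while Chac1 and Trib3 came last. The highest Chac1 library (6.42 CPM per kilobase) lay below all of Asns but above the lowest of Ddit3 (5.57 CPM per kilobase), and Trib3 lay below all of Chac1. PyMT-Cxcr2-/- TANs had the same order and the same overlaps between neighbors, except that Asns (14.1 ± 1.57) stood before Ddit3 (11.8 ± 1.51 CPM per kilobase).

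**Figure D3:**
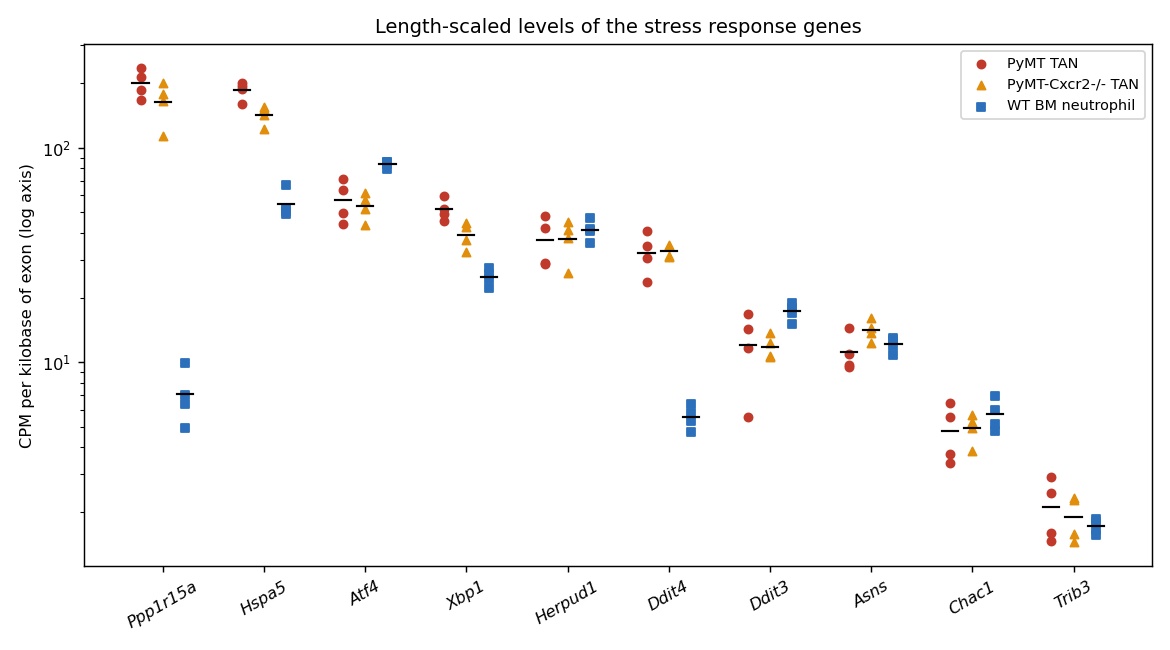
Levels per length, in CPM per kilobase of exon on a log axis, for the 10 genes ordered by their mean in PyMT TANs. Each symbol is a library and each short line a group mean. Ppp1r15a moves from 7.07 CPM per kilobase in WT BM neutrophils to 200.4 in PyMT TANs, while Herpud1, Asns, Chac1 and Trib3 keep groups that overlap.

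The genes whose pattern over the 12 libraries was most like each of the 10 were found by the root mean square difference of their log2 levels, each centered on its mean, among genes of at least 10 CPM. Otud4 (0.09 log2 units) and Atp1b3 (0.11) were nearest to Xbp1, and Arhgap5 (0.12) and Ranbp2 (0.15) to Hspa5. Pan2 and Adrm1 (both 0.10) were nearest to Atf4, and Ccdc82 and Armcx5 (both 0.13) to Ddit3. Maff (0.26) and Tgif1 (0.27), both transcription factors, were nearest to Ppp1r15a and further from it than the nearest genes of any other of the 10. Pfkl (0.18) and 0610040J01Rik (0.19) were nearest to Ddit4, Kctd7 (0.13) and Rab10os (0.15) to Herpud1, and Csf3r (0.12) was near to Asns. For Trib3 they were Phactr4 (0.18) and Arl4c (0.20), and for Chac1 Cramp1l (0.15) and Mapk8ip3 (0.17). Among the 10 genes themselves the closest pair was Atf4 and Ddit3 (0.25).

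The wider pathway was read from 8 gene lists beside the 10 genes. Of 17 tested genes of the stress sensors and the eIF2 machinery, 8 were higher and 5 lower in PyMT TANs than in BM, and 6 were higher and 2 lower when Cxcr2 was lacking. Of all genes tested, 53.3% were called in the first comparison (30.1% higher and 23.2% lower) and 59.5% in the second (34.4% higher and 25.1% lower), so that the share called in this list was above that of all genes in PyMT TANs and below it in the knock-out TANs. Atf6, the sensor that is cut to release a transcription factor, was at 197 to 218 CPM in PyMT TANs, 165 to 196 CPM in PyMT-Cxcr2-/- TANs and 51.4 to 59.7 CPM in BM. Eif2ak3, the sensor kinase Perk, was at 47.3 to 94.0 CPM, 54.4 to 80.8 CPM and 129 to 166 CPM in the same order, with log2 fold changes against BM of -1.13 and -1.05. Eif2ak3 overlaps Gm43292 on the opposite strand. Ern1, the sensor Ire1, was higher than in BM in both TAN groups (0.71 and 1.02). Atf6 and Ern1 were thus higher and Eif2ak3 lower. None of the 3 overlapped with BM, as was the case for 58.2% and 65.8% of all genes. Other sensor genes of the list went both ways in PyMT TANs. Eif2ak2 and Eif2ak4 were called higher there (log2 fold changes 1.70 and 1.91), and Eif2ak1 and Atf6b lower (-0.64 and -0.74). Eif2b3, a subunit of the exchange factor of eIF2, had the largest rise in both TAN groups (log2 fold changes 3.06 and 2.61), from at most 0.686 CPM in BM. Eif2s1, the subunit of eIF2 that is phosphorylated, rose in PyMT TANs to a mean of 21.6 CPM from 5.74 CPM in BM. Its mean in PyMT-Cxcr2-/- TANs was 14.1 CPM. Nck1, an adaptor protein, fell by 1.91 and 1.72 on the log2 scale.

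ER chaperones and folding enzymes rose more often than they fell, with 14 of 19 higher and 1 lower in PyMT TANs and 12 of 19 higher and 1 lower in the knock-out TANs. Their median log2 fold changes were 1.47 and 1.08, beside 0.09 for all genes tested in each comparison. P4hb, a protein disulfide isomerase, rose from 49.4 to 56.5 CPM in BM to 496 to 791 CPM in PyMT TANs (log2 fold change 3.57). It was at 297 to 412 CPM in PyMT-Cxcr2-/- TANs. Sdf2l1, a partner of Hspa5, rose by 3.85 and 3.53 on the log2 scale in the 2 TAN groups. Sil1, the exchange factor of Hspa5, rose by 2.99 and 3.08 from 0.570 CPM. Ppib, the prolyl isomerase cyclophilin B, was the lower member in both, at -0.83 and -0.74. Among 18 genes of ER translocation and export, 6 were higher and 1 lower in each TAN group with medians of 0.28 and 0.14, a smaller share called than the 53.3% and 59.5% of all genes. The list was led by the coat protein Sec24d (3.70 and 3.62). Sec31a of the same coat followed in PyMT TANs (1.17), and its mean was 43.2 CPM in PyMT-Cxcr2-/- TANs beside 28.8 CPM in BM. Ssr2 of the translocon followed in PyMT-Cxcr2-/- TANs (0.77, with groups that overlapped) and was also called higher in PyMT TANs (1.01). The translocon subunit Sec61b was lower (-0.75 and -0.61). Of 18 genes of ER associated degradation, 2 were higher and 4 lower in PyMT TANs and 1 was higher and 4 lower in PyMT-Cxcr2-/- TANs, with medians of -0.28 and -0.14, again a smaller share called than among all genes. Selenos was higher in both (1.24 and 0.89) and Edem3 in PyMT TANs (0.64). Herpud2, a relative of Herpud1, was lower in PyMT TANs (-0.89), and its mean was 89.7 CPM in PyMT-Cxcr2-/- TANs beside 160 CPM in BM. Ufd1, which acts with the extraction ATPase, was lower in both TAN groups (-0.87 and -1.01). Ppib, Sil1, Ssr2 and Ufd1 overlap other genes on the opposite strand.

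Of 15 stress transcription factors and death effectors beside Atf4 and Ddit3, 10 rose in PyMT TANs and 11 in PyMT-Cxcr2-/- TANs, and 0 fell in either, with medians of 1.32 and 1.57. Of all genes tested, 30.1% and 34.4% were called higher and 23.2% and 25.1% lower in these comparisons, with a median of 0.09 in each. Atf3, a transcription factor induced by many stresses, was at 343 to 547 CPM in PyMT TANs, 395 to 472 CPM in PyMT-Cxcr2-/- TANs and 18.1 to 39.3 CPM in BM. Atf3 is also one of the 11 genes often raised by tissue dissociation, 8 of them called higher and 1 lower in TANs of PyMT mice, and 10 higher and 0 lower in those of PyMT-Cxcr2-/- mice. Bcl2l11, which codes for the death protein Bim, rose from 53.9 to 69.8 CPM in BM to 239.6 to 333 CPM in PyMT TANs (log2 fold change 2.32). It was at 302 to 375 CPM in PyMT-Cxcr2-/- TANs. Tnfrsf10b, the death receptor of Trail, was the sole gene of the 8 lists that was called between the TAN groups. Of all 18463 genes tested there, 1.98% were called, so that so few calls do not set the lists apart from other genes. It was at 6.57 to 10.4 CPM in PyMT TANs and 15.5 to 18.9 CPM in PyMT-Cxcr2-/- TANs, with a log2 fold change of 1.08 ± 0.21 and edgeR adjusted p = 0.0248. This call was lost in 5 of the 8 fits that left out a library, namely PyMT TAN 2 or 4 or PyMT-Cxcr2-/- TAN 1, 3 or 4.

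Genes for amino acid supply under Atf4 were read in 3 lists, beside the 53.3% and 59.5% of all genes that were called in the TAN groups with and without Cxcr2. Of 7 tested transporters, 6 rose and 0 fell in each TAN group, with medians of 1.63 and 1.94. Slc7a5, which imports large neutral amino acids, rose from 5.63 to 8.45 CPM in BM to 39.6 to 62.3 CPM in PyMT TANs and 47.6 to 62.9 CPM in PyMT-Cxcr2-/- TANs, and the glutamine transporter Slc1a5 rose by 2.42 and 2.08 on the log2 scale. Of the enzymes for amino acid and one-carbon synthesis, 6 of 11 tested were higher and 2 lower in PyMT TANs and 5 of 10 higher and 2 lower in the knock-out TANs, a share called somewhat above that of all genes. Aldh18a1 of proline synthesis rose most in both among genes of at least 1 CPM (4.49 and 4.13). The serine pathway genes Psat1 in PyMT TANs (2.86) and Shmt2 in PyMT-Cxcr2-/- TANs (2.95) came next, the latter overlapping Ndufa4l2 on the opposite strand. Mthfd2, a mitochondrial folate enzyme (-1.40 and -1.21), and the transaminase Got1 (-1.38 and -0.96) were lower in both. Of 18 transfer RNA synthetases, 9 were higher and 1 lower in each TAN group, a share called close to that of all genes, though with more of the calls higher. The list had Iars (3.45 and 3.44) and Aars (2.72 and 2.20) at the top and Dars (-2.12 and -2.05) the one that fell. Aars overlaps Exosc6 on the same strand and Gm24103 on the opposite strand. Between PyMT-Cxcr2-/- and PyMT TANs, 0 genes of the other 7 lists were called, beside 1.98% of all genes tested. The list medians there ran from -0.29 to 0.01 beside -0.07 for all genes tested.

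**Figure D4:**
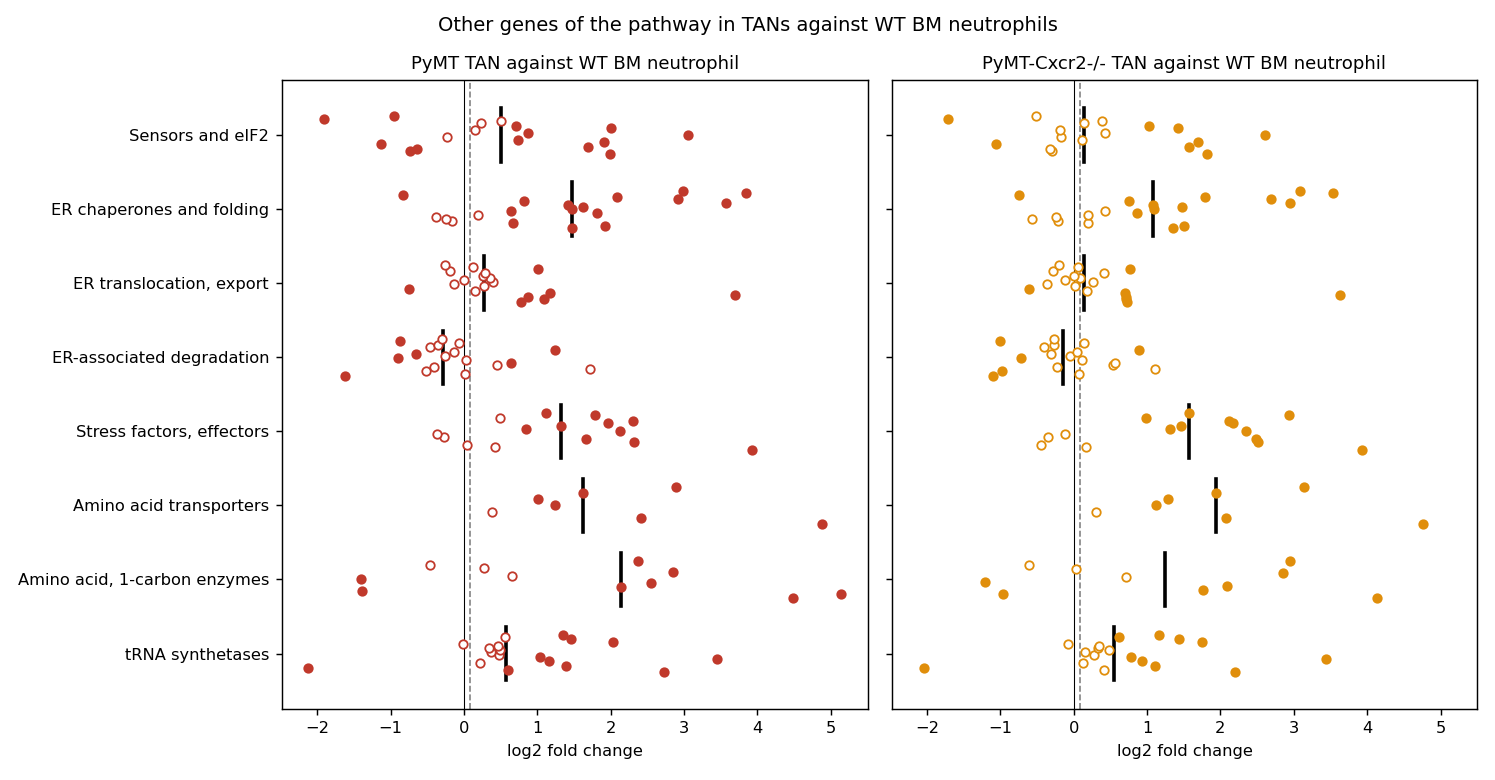
Log2 fold changes of the other genes of the pathway in PyMT TANs (left) and PyMT-Cxcr2-/- TANs (right) against the same 4 WT BM neutrophil libraries, by gene list. Each point is a gene, filled where it passed both thresholds, the black bar is the list median and the dashed line the median of all genes tested (0.09). Chaperones lie mostly to the right (medians 1.47 and 1.08), while ER associated degradation is centered slightly to the left (-0.28 and -0.14).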

How the data were processed

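RNA of sorted neutrophils was depleted of ribosomal RNA, made into directional libraries and sequenced in pairs by the authors, who aligned the reads to mm10 and deposited counts per gene from HTSeq, 1 file per library. Whether counting used strand, the annotation release and the tool versions are not given in the sources used here. The labels number replicates 1 to 4 without naming mice, and the study describes its comparisons as made on 4 animals for each group, so that libraries were taken as separate mice. Libraries of a group differed beyond counting noise (chi-square per degree of freedom 24.9 to 150.5 over 18 pairs), and none was merged.

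Symbols, coordinates and exon lengths came from GENCODE M21 (GRCm38), which matched 55154 of 55335 IDs. Lines that name no gene were left out of library sizes. Levels are CPM scaled by TMM over 12 libraries. Each comparison was fitted on its own 2 groups with edgeR 4.0.16 in R 4.3.3 (TMM, filterByExpr, robust quasi-likelihood test), p-values were adjusted over all genes tested by Benjamini-Hochberg, and calls needed an adjusted p under 0.05 and 1.5-fold. Fold intervals are 95% intervals of the fit. The test was tried on simulated counts with known changes. Promoter sequences came from RefSeq (GRCm38.p6).

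The 10 genes and all lists were chosen with earlier results of these data known. Named list genes are the 2 largest rises and 2 largest falls called per list and comparison at a mean of at least 1 CPM, and a few genes that these rules name are not reported here. Atf6, Atf6b, Eif2ak1, Eif2ak2 and Eif2ak4 in PyMT TANs, and Ern1, Ltf, Camp and Ngp, were named beside these after their values were seen. Alternatives were other size factors, other filters, DESeq2 1.42.0, 12 libraries in one fit, no robust estimation, a replicate block, offsets for GC content and exon length, each library left out, and no fold limit. The GC and length offsets were centered in each library after the results of the uncentered form had been seen, and both forms are given. No sequence was printed for proteins, and no genome was read.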

Additional observations from a re-analysis of the deposited data

How the results depend on the processing

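The calls of Xbp1, Hspa5, Ppp1r15a and Ddit4 as higher against WT BM neutrophils held in both comparisons under every alternative but one, and with each library left out. With GC and length offsets not centered, a form that was run first and kept after its results were seen, Xbp1 was at 0.33 (adjusted p = 0.014) in PyMT-Cxcr2-/- TANs and was no longer called. For each gene the log2 fold change was also set against that of the main fit, and the median of these differences was taken. With uncentered offsets it was -0.32 and -0.38 against BM. The split of higher and lower calls turned from 5160 and 3988 to 4480 and 5183 in PyMT TANs. It turned from 6104 and 4444 to 5164 and 6562 in PyMT-Cxcr2-/- TANs, and from 255 and 110 to 91 and 75 between the TAN groups. The median difference per gene was beyond 0.1 in size as well with only genes of at least 10 CPM (0.26 and 0.18 against BM). The same held with 12 libraries in one fit (-0.14, PyMT-Cxcr2-/- TANs) and with offsets and replicate block (-0.12, PyMT TANs). The median over all genes tested also depends on which genes are tested. It was 0.09 against BM in both main fits, 0.02 and -0.01 with at least 10 CPM, and 0.52 and 0.42 with no filter. The causes were not tested.

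Atf4 made the count of lower genes 1 in PyMT TANs with no fold limit and with uncentered offsets, and 1 in PyMT-Cxcr2-/- TANs with 12 libraries in one fit, with centered offsets and replicate block and with uncentered offsets. With no fold limit Ddit3 joined it there, which made 2. With each library left out the lower count was 0 to 1 in both comparisons.

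Between PyMT-Cxcr2-/- and PyMT TANs, where 0 of the 10 genes were called under any alternative, the number of genes called was 365 and became 594 with no filter, 658 with genes of at least 10 CPM, 1035 with DESeq2, 886 with 12 libraries in one fit, 166 with uncentered offsets, and 23 to 513 with a library left out, the lowest without PyMT TAN 2. With the replicate block it was 13, and 12 with block and centered offsets. The block left the calls of the 10 genes as they were. The labels link libraries of the same number by that number only. Correlations were taken on log2 levels of genes with a mean of at least 1 CPM, after the group mean of each gene was subtracted. They thus compare deviations from the group and not whole expression profiles. For libraries of the same number they ran from -0.27 to -0.12 between the TAN groups and from -0.12 to 0.04 for PyMT TANs and BM. For PyMT-Cxcr2-/- TANs and BM they ran from 0.03 to 0.13. In that order, 0, 0 and 5 of 8 libraries correlated best with their own number. Deviations of libraries of unlike number reached correlations of 0.46 (PyMT TAN 1 with PyMT-Cxcr2-/- TAN 4) and -0.49 (PyMT TAN 1 with PyMT-Cxcr2-/- TAN 2). What such libraries share was not tested. The chaperone list had 1 call with no filter, 2 each with genes of at least 10 CPM, DESeq2 and 12 libraries in one fit, and 0 to 1 with a library left out. ER associated degradation had 1 with genes of at least 10 CPM, and the synthetases 1 with either form of offsets. The stress factor list had 0 with the replicate block, with or without offsets, and 0 to 1 with a library left out.

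Against BM, restricting the test to genes of at least 10 CPM gave 4479 calls in place of 9148 (PyMT TANs) and 3900 in place of 10548 (PyMT-Cxcr2-/- TANs), with 7411 and 7179 genes tested, and left 2 and 1 synthesis enzymes called. ER associated degradation had 10 and 9 calls with no fold limit, 12 and 11 with uncentered offsets and 5 to 8 in PyMT-Cxcr2-/- TANs with a library left out, without PyMT-Cxcr2-/- TAN 2 the highest. Translocation genes in PyMT-Cxcr2-/- TANs had 2 calls with 12 libraries in one fit, 11 with no fold limit and 4 with uncentered offsets.

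Signs turned for 7 of the 10 genes, with values of at most 0.21 on the log2 scale and adjusted p of 0.184 or more. Between the TAN groups Herpud1 turned to 0.042 (DESeq2 size factors), 0.043 (no filter), 0.045 (DESeq2) and 0.013 (upper quartile), and Ddit4 to 0.041, 0.045, 0.043 and 0.0099 under the same alternatives and 0.016 with the replicate block. Ddit3 turned to 0.029 with the replicate block, 0.015 with offsets and 0.075 with both, and Chac1 to -0.069 with offsets, -0.051 with the block as well and -0.12 uncentered. With a library left out the ranges there were -0.23 to 0.025 for Atf4, -0.29 to 0.18 for Ddit3, -0.11 to 0.15 for Herpud1, -0.31 to 0.049 for Trib3, -0.10 to 0.20 for Chac1 and -0.13 to 0.15 for Ddit4. In PyMT TANs against BM, Herpud1 turned to 0.0031 (upper quartile), 0.18 (at least 10 CPM) and 0.0095 (offsets), and Asns to 0.049 and 0.21 under the first pair, with ranges of -0.26 to 0.0090 and -0.19 to 0.0066 with a library left out. In PyMT-Cxcr2-/- TANs against BM, Herpud1 turned to 0.15 (at least 10 CPM), 0.032 (offsets) and 0.018 (offsets and block), with a range of -0.12 to 0.14. Trib3 turned to -0.21 and Asns to -0.024 with uncentered offsets, and Chac1 had a range of -0.18 to 0.033.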

Other observations

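Within single libraries, the length-scaled level of Ppp1r15a divided by that of Atf4 ranged over the 4 PyMT TAN libraries from 2.90 to 5.36, over the 4 libraries of PyMT-Cxcr2-/- TANs from 2.61 to 3.90, and over those of WT BM neutrophils from 0.0620 to 0.116. The length-scaled level of Ddit3 divided by that of Atf4 was 0.127 to 0.235, 0.186 to 0.241 and 0.191 to 0.220 in the same order, so that its ranges overlapped in all 3 groups. In none of 30 sets of 4 libraries, the 10 genes in each group, did a library stand apart by Dixon's criterion.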
